A study of Oryza sativa and Arabidopsis thaliana with 16 samples.

Results

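The question was whether Arabidopsis thaliana roots and shoots changed gene expression in the same way when nitrogen was supplied. For each probe set of the array, the nitrogen change in roots was compared with the nitrogen change in shoots, and the difference between the changes was tested. The 8 Arabidopsis arrays of a series of 16 were used, and the other arrays are of rice. They fall into 4 groups of 2 arrays, which the labels call biological replicates: root control, root nitrogen, shoot control and shoot nitrogen. All plants were wild type and 13 days old. They had grown in liquid medium, in which 0.5 mM ammonium succinate was the nitrogen source and sucrose was at 3 mM, at 22 °C and 50 μE of light per second and square metre. Nitrogen-treated plants were given 20 mM KNO3 together with 20 mM NH4NO3 for 2 h from the beginning of the light period, and control plants 20 mM KCl for the same time. Chloride and total added salt therefore differed along with nitrogen and cannot be told apart from it. The tissue label of each sample says root or shoot, whereas the harvest and extraction texts speak of whole seedlings, and nothing in the labels says how many plants were pooled.

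Plants take up nitrate and ammonium through the root. Part of the nitrate is reduced and assimilated there and part is carried to the shoot, where leaves use photosynthetic reducing power for the same steps. Nitrate also acts as a signal: within minutes to hours it changes the expression of genes for its own transport and assimilation, for the supply of NADPH and carbon skeletons, and for transcriptional regulators. Roots meet the added salts directly, shoots through the transpiration stream or through signals from the root.

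Values are log2 expression values made with RMA, a method that removes background, brings the arrays to a common distribution and combines the probes of each set into 1 value. The root change is the mean of the root nitrogen arrays minus that of the root control arrays, and the shoot change is defined likewise. The root minus shoot difference is the root change minus the shoot change. In the fit each probe set has a single estimate of the spread, shared by all 4 groups. Its root and shoot changes therefore have the same standard error, also where only the root control arrays lay apart. A probe set was called when its root minus shoot difference had an adjusted p under 0.05 in limma's moderated test, with Benjamini-Hochberg adjustment over all 22746 probe sets.

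The tissue labels were checked against marker genes. All 11 photosynthesis markers were called lower in root than in shoot control arrays (15.8% of all probe sets were), and 8 of 9 root markers were called higher (15.5% of all probe sets). The mean level of the photosynthesis markers was 5.70 to 6.44 on the root arrays and 10.9 to 11.3 on the shoot arrays. The root control arrays differed most from each other. The standard deviation of the difference between them was 0.489, against 0.281 for root nitrogen, 0.212 for shoot control and 0.350 for shoot nitrogen. Their photosynthesis marker means were also apart, at 6.44 and 5.70, against 6.29 and 6.16 on the root nitrogen arrays. The spread of values within the root control arrays was narrower than on the other arrays, with a lower quartile limit of 4.69 and 4.75 against 4.53 to 4.58 and an upper quartile limit of 6.92 and 6.83 against 7.16 to 7.22.

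The root minus shoot difference moved with brightness. In the dimmest quartile of probe sets by mean level over the 8 arrays its median was -0.22, and in the next one -0.02. In the brighter quartiles it was 0.31 and 0.20. After quantile normalization the same medians were -0.05, 0.03, 0.05 and -0.01. The median shoot change ran from -0.02 to -0.0022 over the quartiles, and the median root change from -0.21 to 0.28. Called probe sets with a higher root change numbered 0, 12, 37 and 29 from the dimmest to the brightest quartile, and those with a lower root change 13, 10, 4 and 5. The part of this pattern in each call was not tested beyond the scaling alternatives given with the results.

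**Figure D1:**
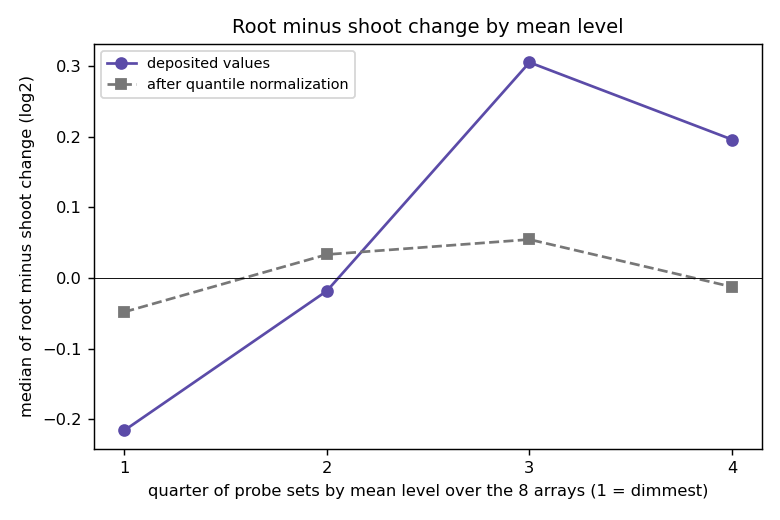
Median root minus shoot difference (log2, vertical axis) in each quartile of the 22746 probe sets by mean level over the 8 arrays (horizontal axis, 1 = dimmest), for the deposited values (circles) and after quantile normalization (squares). The deposited values run from -0.22 in the dimmest quartile to 0.31 in the third, and the normalized ones stay between -0.05 and 0.05.

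The nitrogen change differed between root and shoot for 110 of 22746 probe sets (0.484%). Of these, 60 were paired with 1 gene by the platform annotation, 3 with several genes and 47 with none. For each of the 110, the 4 differences between a nitrogen and a control array in root did not overlap with the 4 in shoot. That held for 37.7% of all probe sets. The calls came from the same values, so the absence of overlap is no separate support for them. In 78 the root change was the higher one (0.343% of all probe sets) and in 32 the lower one (0.141%). With each array centred on its median, 42 were called, 23 higher and 19 lower, so that the higher share was 54.8% in place of 70.9%. That centring also moved the median difference of all probe sets from 0.03 to -0.08. For this reason no direction is given for the difference as a whole.

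Being called in 1 tissue and not in the other was far more frequent than a tested difference between the tissues. The root change was called for 2589 probe sets (6.94% rose and 4.44% fell) and the shoot change for 145 (0.374% rose and 0.264% fell). Of the 2516 called in root and not in shoot, 92 had a called root minus shoot difference. Of the 72 called in shoot and not in root, 10 had one. Among the 73 called in both tissues, 67 changed in the same direction, and 2 of those 67 differed in size between the tissues. The other 6 changed in opposite directions. The smallest called difference was 1.08 in size, and the median standard error of a difference was 0.25. Many differences of that size were not called: 1475 probe sets differed by 1 or more on the log2 scale, of which 110 were called, and 114 differed by 2 or more, of which 37 were called.

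The 110 probe sets were sorted by the sizes of their changes. A probe set is named root-confined here when its root change was called and its shoot change was neither called nor as large as 0.5. Shoot-confined is the reverse. Opposite means changes of at least 0.5 in size with different signs and at least 1 of them called. There were 73 root-confined, 9 shoot-confined and 24 opposite probe sets, 3 that changed in the same direction by different amounts, and 1 left over. The words describe sizes and do not show that the quiet tissue did not respond. For 8 of the 73 root-confined probe sets the 95% confidence interval of the shoot change left out 0, although for each of the 73 it lay within -1 and 1. For 1 of the 9 shoot-confined probe sets the interval of the root change left out 0, and for each of the 9 it lay within -1 and 1. Both kinds of interval rest on the spread of all 4 groups and not on that of the tissue alone.

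**Figure D2:**
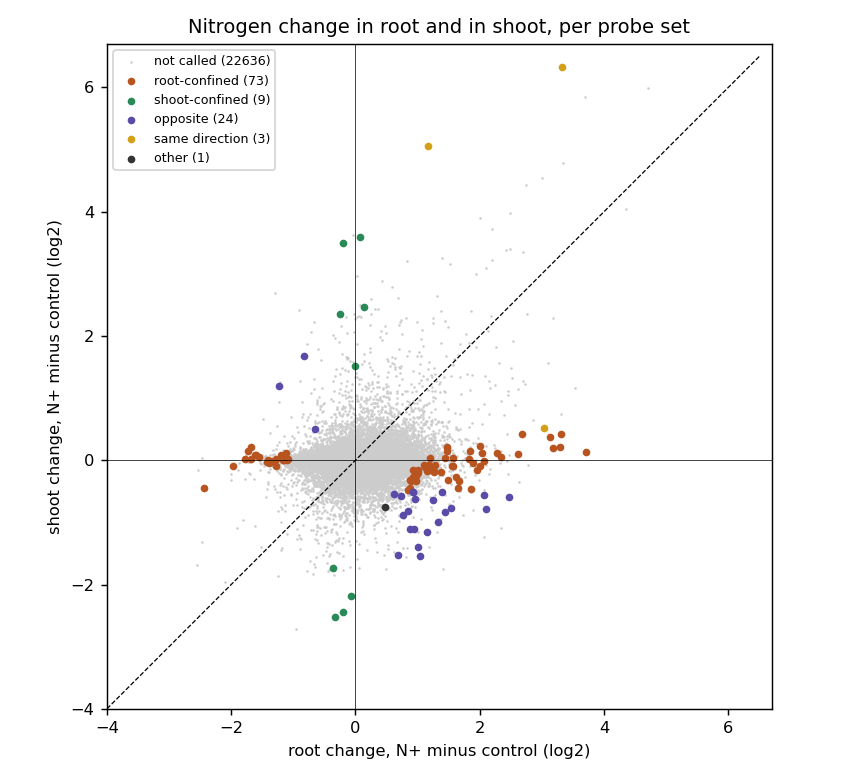
Shoot change (log2, vertical axis) against root change (log2, horizontal axis) of all 22746 probe sets, with the 110 called ones coloured by class and the dashed line marking equal changes. Root-confined probe sets lie along the horizontal axis on both sides, shoot-confined ones along the vertical axis, and 21 of the 24 opposite ones lie at the lower right, with a rise in root and a fall in shoot.

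Root-confined rises formed the largest class in the fit used here, with 51 probe sets, 32 of them paired with 1 gene. That ranking depends on how the spread is estimated. With trended and robust variances 177 of 282 calls were lower in root, and without moderated variances 26 of 34 were. Their root changes ran from 0.85 to 3.70 with a median of 1.48, and their shoot changes from -0.48 to 0.42 with a median of -0.09. Their mean level over the 8 arrays ran from 5.03 to 9.29, and 16 of the 51 had a mean under 6, against 57% of all probe sets tested. Their median level was 5.57 in root controls, 7.02 in nitrogen-treated roots, 6.78 in shoot controls and 6.58 in nitrogen-treated shoots. The root control mean was above the shoot control mean in 14 of the 51, against 12748 of all 22746 probe sets. Control values are part of the difference that selected the class, so this order is no separate result.

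The serine carboxypeptidase-like gene scpl31, of a family of secreted hydrolases and acyltransferases, had the largest called difference among root-confined genes. It was at 5.08 and 4.75 on the root control arrays and at 8.70 and 8.54 on the root nitrogen arrays. On the shoot arrays it was at 4.42 and 4.67 in controls and at 4.57 and 4.78 with nitrogen. The root nitrogen arrays stood far above the other 6, which lay close together. The root change was 3.70 ± 0.17 (log2 change ± SE, n = 2 arrays per group), the shoot change 0.13 ± 0.17 and the difference 3.57 ± 0.24 (adjusted p = 0.0230). It was called after quantile normalization (adjusted p = 0.0292) and after median centring (0.0363) as well.

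GAT1_2.1 encodes a glutamine amidotransferase-like protein, of the enzyme type that takes nitrogen from the amide group of glutamine. Root control arrays gave 8.51 and 7.61, and root nitrogen arrays 11.28 and 11.41. Shoot control arrays gave 7.40 and 7.32, and shoot nitrogen arrays 7.79 and 7.37. The root control arrays were well apart, and both lay below the root nitrogen arrays. The difference was 3.07 ± 0.41 (adjusted p = 0.0482), from a root change of 3.29 ± 0.29 and a shoot change of 0.22 ± 0.29. A second probe set of the gene, at a mean level of 4.61 over the 8 arrays, had a root change of 0.22 and a difference of 0.27 ± 0.25 and was not called. The adjusted p of the first was 0.0576 after quantile normalization and 0.0608 after centring.

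SAMTL encodes an S-adenosylmethionine transporter-like carrier protein. In roots it went from 5.36 and 4.86 to 6.7 and 6.75, towards its shoot level of 7.17 and 7.19 in controls and 6.85 and 6.98 with nitrogen. The difference was 1.89 ± 0.25 (adjusted p = 0.0482). HON4, a gene with a linker-histone type DNA-binding domain, was at 7.69 and 7.46 in root controls and 8.46 on each root nitrogen array, and at 7.76 and 7.77 in shoot controls against 7.40 and 7.25 in nitrogen-treated shoots. Its tissues moved apart from similar control levels, with a difference of 1.32 ± 0.18 (adjusted p = 0.0496). The shoot change of HON4 was -0.44 ± 0.13, with a 95% interval of -0.75 to -0.13, so it is root-confined only by the limit of 0.5.

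Of the root-confined rises given by a locus code alone, AT1G80380 had the largest difference. It was at 8.10 and 7.38 in root controls, 10.86 and 10.98 in nitrogen-treated roots, 9.11 and 9.22 in shoot controls and 9.58 and 9.13 in nitrogen-treated shoots. Its root level passed from below the shoot level to above it (difference 2.99 ± 0.36, adjusted p = 0.0388). The following 3 were chosen after their values were seen, as the next largest with a gene. AT5G18840 had a root change of 3.13 ± 0.23 and a shoot change of 0.37 ± 0.23, AT1G30820 had 2.62 ± 0.25 and 0.10 ± 0.25, and AT5G48590 had 1.86 ± 0.14 and -0.47 ± 0.14. Like AT1G80380, AT5G48590 was lower in root than in shoot controls, at 6.20 and 6.02 against 8.98 and 9.04. AT5G18840 and AT1G30820 were higher there, AT1G30820 at 8.43 and 7.75 against 6.89 and 7.13. AT5G48590 stayed called after quantile normalization (adjusted p = 0.0394) and after centring (0.0405). The calls of AT5G18840 (adjusted p = 0.0594 and 0.0517) and AT1G30820 (0.0549 and 0.0641) were lost under both.

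**Figure D3:**
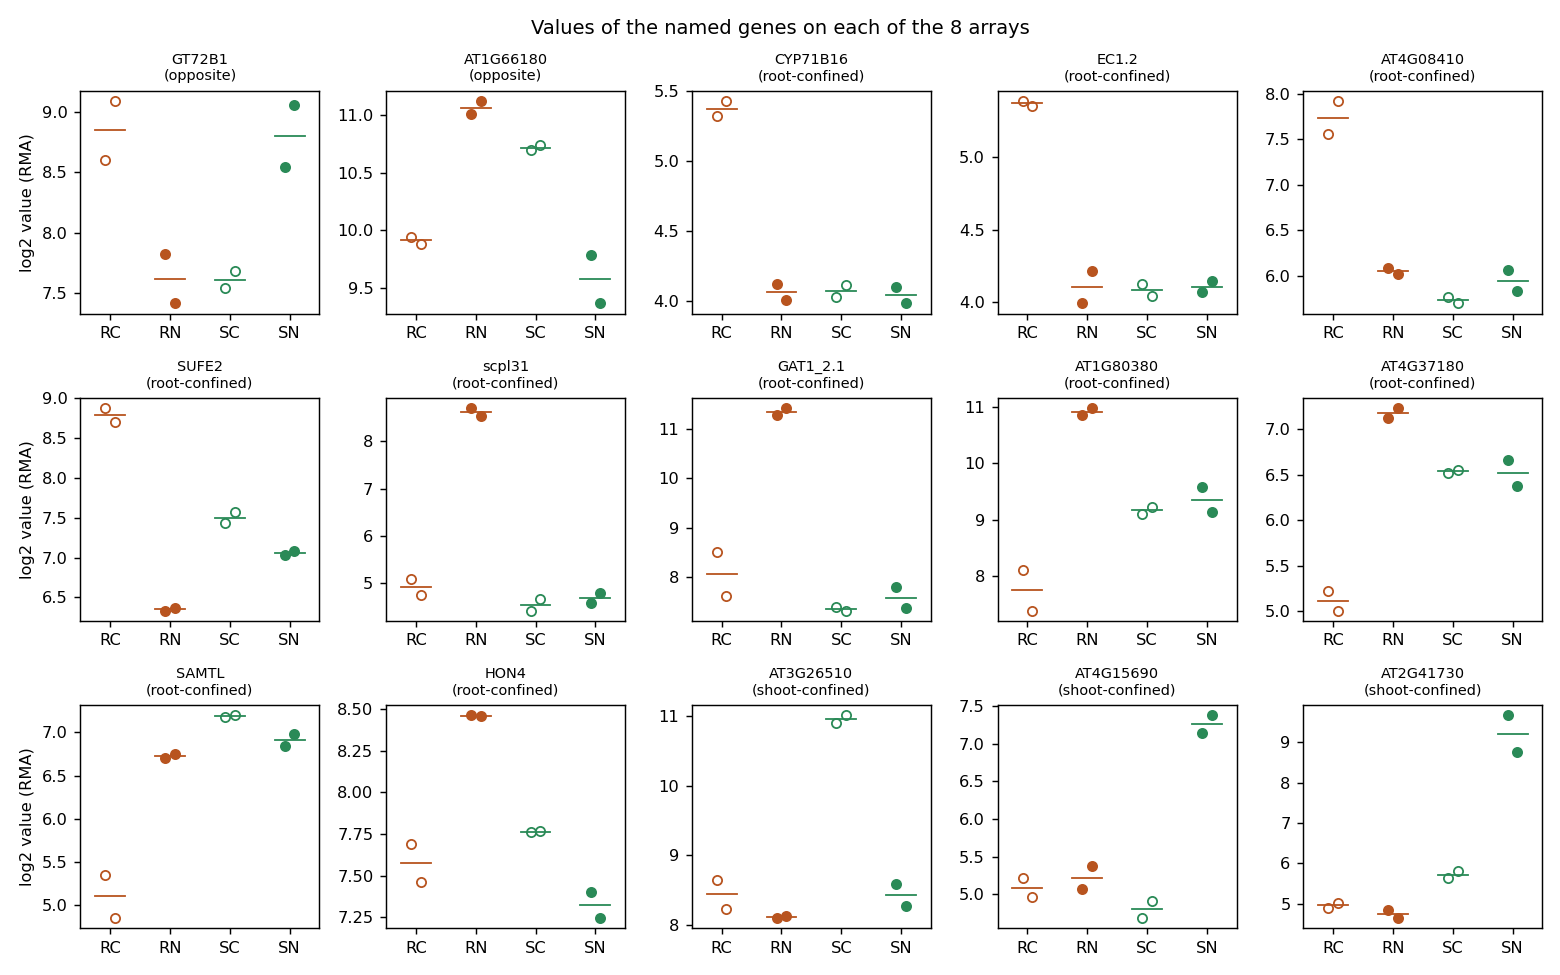
Log2 value (vertical axis, its range set for each gene) of 15 genes on each of the 8 arrays, by group: RC root control, RN root nitrogen, SC shoot control, SN shoot nitrogen. Open circles are control and filled circles nitrogen arrays, and the lines are group means: scpl31 stands out on the root nitrogen arrays, AT2G41730 on the shoot nitrogen arrays, and AT1G66180 and GT72B1 move in opposite directions in the 2 tissues.

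Root-confined falls were 22 probe sets, 15 of them paired with 1 gene, and nearly all were dim. Their mean level over the 8 arrays had a median of 4.57, and 20 of the 22 had a mean under 6. Their median level was 5.64 in root controls and 4.14 in nitrogen-treated roots, against 4.18 in shoot controls and 4.24 in nitrogen-treated shoots. In all 22 the root control arrays were above the shoot control arrays on average, against 12748 of all 22746 probe sets. Here too the control values are part of the difference that selected the class. At the median, then, these probe sets were raised on the root control arrays and near the lower end of the scale in the other 3 groups, and the lower quartile limit of the root control arrays was itself higher, as given above. The part of that in these falls was not tested beyond the scaling alternatives.

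SUFE2, which encodes an activator of the cysteine desulfurase that supplies sulfur for iron-sulfur clusters, was the brightest of this class. It was at 8.87 and 8.70 in root controls and at 6.33 and 6.37 in nitrogen-treated roots. In shoots it was at 7.43 and 7.57 in controls and at 7.03 and 7.08 with nitrogen. Its arrays agreed closely within each group, which calling favours and which is no separate support. The median gap between the root control arrays was 0.16 for called probe sets, against 0.29 for all. For SUFE2 the order of the tissues turned: root lay above shoot in controls and below it with nitrogen. In roots the change was -2.44 ± 0.12, in shoots -0.45 ± 0.12 with a 95% interval of -0.74 to -0.15, and the difference -1.99 ± 0.18 (adjusted p = 0.0316). SUFE2 was also called after quantile normalization (adjusted p = 0.0292) and after centring (0.0405).

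The other named falls lay low. CYP71B16, a cytochrome P450 gene, was at 5.32 and 5.43 in root controls and between 3.98 and 4.12 on the other 6 arrays. EC1.2, a small secreted protein known from the egg cell, was at 5.39 and 5.36 in root controls and between 3.99 and 4.21 elsewhere. Both genes showed the same picture, with only the root control arrays apart. Their differences were -1.28 ± 0.17 (adjusted p = 0.0482) and -1.30 ± 0.18 (adjusted p = 0.0496), and neither was called after quantile normalization (adjusted p = 0.0638 and 0.0693). AT4G08410, measured by a probe set that may also bind related transcripts, went from 7.56 and 7.92 to 6.09 and 6.02 in roots and was between 5.70 and 6.07 on the shoot arrays (difference -1.90 ± 0.23, adjusted p = 0.0388, and 0.0549 after quantile normalization).

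Shoot-confined changes numbered 9, with 5 rises and 4 falls, and 5 of the 9 were paired with 1 gene. The rises ran from 1.51 to 3.60 in shoots with root changes between -0.24 and 0.14. At the median their level was 5.13 in shoot controls and 8.06 in nitrogen-treated shoots, against 4.95 and 4.75 in roots. The falls ran from -2.52 to -1.73 in shoots with root changes between -0.36 and -0.08. All 4 falling probe sets were higher in shoot than in root controls, an order that selection by the same control values favours. Their median shoot level came down from 7.43 to 5.31, close to the root levels of 4.90 and 4.62. The gap between the tissues was smaller with nitrogen for each of the 4, as it was for 61.8% of all probe sets.

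AT2G41730 had the largest shoot-confined rise with a gene. Its shoot arrays were at 5.64 and 5.80 in controls and at 9.66 and 8.76 with nitrogen. Its root arrays stayed between 4.65 and 5.01. The 2 nitrogen-treated shoot arrays differed from each other by more than any other pair of this gene, yet both were far above the rest. The shoot change was 3.49 ± 0.28, the root change -0.20 ± 0.28 with a 95% interval of -0.86 to 0.45, and the difference -3.70 ± 0.39 (adjusted p = 0.0320). Its probe set may also bind related transcripts. The call held after quantile normalization (adjusted p = 0.0447) and after centring (0.0455).

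AT4G15690, a member of the list of glutaredoxins, was also shoot-confined. Its level was 4.69 and 4.91 in shoot controls and 7.15 and 7.37 in nitrogen-treated shoots. In roots it was 5.21 and 4.96 in controls and 5.07 and 5.37 with nitrogen, which overlap. The shoot change was 2.46 ± 0.17, the root change 0.14 ± 0.17 and the difference -2.32 ± 0.25 (adjusted p = 0.0320). After quantile normalization its adjusted p was 0.0576. AT5G26200, chosen after its values were seen, rose in shoots from 5.10 and 5.16 to 6.67 and 6.62, while its root arrays lay between 5.22 and 5.40 (difference -1.51 ± 0.18, adjusted p = 0.0388, and 0.0676 after quantile normalization).

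The largest shoot-confined fall with a gene was that of AT3G26510. It was at 10.89 and 11.01 in shoot controls and at 8.58 and 8.27 in nitrogen-treated shoots. Roots gave 8.65 and 8.23 in controls and 8.10 and 8.13 with nitrogen. Nitrogen-treated shoots thus came to the level of roots. The difference was 2.19 ± 0.25 (adjusted p = 0.0388, 0.0447 after quantile normalization and 0.0529 after centring). AT4G01460, also chosen after its values were seen, fell in shoots from 7.0 and 7.13 to 5.38 and 5.29 and in roots was at 4.70 and 4.62 in controls and 4.27 and 4.34 with nitrogen (difference 1.38 ± 0.17, adjusted p = 0.0399, and 0.0549 after quantile normalization and 0.0538 after centring).

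Opposite changes were mostly of 1 kind: 21 of the 24 probe sets were higher in roots and lower in shoots with nitrogen. A root change was called for all 21 and the shoot change for 6, so for 15 the fall in shoots was at least 0.5 in size without passing the test on its own. Root changes ran from 0.62 to 2.48 and shoot changes from -1.54 to -0.51. In 18 of the 21 the root control level lay below the shoot control level, with medians of 6.41 and 8.36, and with nitrogen the medians were 7.32 and 7.61. The root control level was above in 3 of the 21, against 12748 of all 22746 probe sets. Selection by the same control values favours that order. The gap between the tissues narrowed in 14 of the 21 (66.7%, against 61.8% of all probe sets). These opposite probe sets were brighter than the root-confined falls, with a median mean level of 7.29 and 4 of 21 under 6. After quantile normalization 8 of the 24 opposite probe sets were called, and after centring 10.

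Of the opposite changes with a root rise and a gene, AT1G66180 had the largest difference. Root arrays went from 9.95 and 9.88 to 11.01 and 11.12. Shoot arrays went from 10.70 and 10.74 to 9.78 and 9.36. The tissues changed places: shoot was above root in controls and below it with nitrogen. Both changes were called, 1.15 ± 0.16 in root (adjusted p = 0.0122) and -1.15 ± 0.16 in shoot (adjusted p = 0.0366), with a difference of 2.30 ± 0.23 (adjusted p = 0.0316). The call held after quantile normalization (adjusted p = 0.0441) and after centring (0.0455).

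AT4G28290, chosen after its values were seen as the other opposite gene with both changes called, kept its tissue order. It was at 4.77 and 4.55 in root controls and 5.42 and 5.67 with nitrogen, and at 8.56 and 8.42 in shoot controls and 7.46 and 7.30 with nitrogen. Its root change was 0.88 ± 0.15 and the shoot change -1.11 ± 0.15. The remaining 5 opposite genes with a root rise (AT1G11820, AT5G47400, AT1G09900, AT2G29670 and AT5G16520) had root changes from 0.62 to 1.39 and shoot changes from -0.62 to -0.51, and none of the 5 shoot changes was called. The difference of each of the 5 lost its call after quantile normalization (adjusted p from 0.0638 to 0.0942).

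The reverse pattern, a fall in roots and a rise in shoots, was found for 3 probe sets, of which only that of GT72B1 was paired with a gene. GT72B1 is a glucosyltransferase that attaches glucose to phenolic compounds and xenobiotics. In roots it was at 8.60 and 9.09 in controls and at 7.82 and 7.42 with nitrogen. In shoots it was at 7.54 and 7.68 in controls and at 8.55 and 9.06 with nitrogen. Nitrogen-treated shoots reached the level of control roots and nitrogen-treated roots that of control shoots. The root change was -1.23 ± 0.25 (adjusted p = 0.0286), the shoot change 1.19 ± 0.25 (adjusted p = 0.137) and the difference -2.42 ± 0.35 (adjusted p = 0.0496). GT72B1 was not called after quantile normalization (adjusted p = 0.0693) or centring (0.0529).

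The 3 probe sets that were higher with nitrogen in both tissues by different amounts were not paired with a gene in the annotation used here. One went from 7.80 and 7.72 to 11.35 and 10.82 in roots and from 5.80 and 5.97 to 12.36 and 12.06 in shoots. Its shoot change of 6.33 ± 0.20 was the largest change of any probe set in either tissue, and its difference was -3.0 ± 0.29 (adjusted p = 0.0316). Another rose by 1.18 in root and 5.06 in shoot. The last rose by 3.04 in root and had a shoot change of 0.52 that was not called.

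Genes of nitrogen-related and other pathways were then taken from lists. These were assembled by locus code, by the start of the symbol (heat shock proteins) or by both (glutaredoxins). Of 54 measured genes in 14 lists, 3 were called: GAT1_2.1, AT4G15690 and AT4G37180. Over all probe sets 0.484% were called, and the lists were chosen with earlier results of these data known. Among the 54, 14 had an unadjusted p under 0.05 in limma, and over all probe sets 18.9% did. The annotation gives most of these genes by locus code alone, and their place in a list comes from general knowledge of the codes. Any further members named were chosen after their values were seen.

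The list of nitrogen-linked regulators, transcription factors and signalling proteins that act in nitrogen responses, held 6 measured genes, and the difference was called for AT4G37180. It was at 5.22 and 5.01 in root controls and 7.13 and 7.23 in nitrogen-treated roots, against 6.52 and 6.55 in shoot controls and 6.66 and 6.38 in nitrogen-treated shoots. The root started below the shoot and ended above it. Its root change was 2.07 ± 0.15, the shoot change -0.02 ± 0.15 with a 95% interval of -0.36 to 0.33, and the difference 2.09 ± 0.21 (adjusted p = 0.0316, 0.0518 after quantile normalization and 0.0455 after centring).

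AT1G25550 and AT1G68670 of the same list were high in both nitrogen-treated tissues. AT1G25550 was at 7.47 and 7.32 in root controls and 10.04 and 9.38 with nitrogen, and at 7.36 and 7.72 in shoot controls and 9.38 and 8.83 with nitrogen. AT1G68670 was at 6.13 and 6.31, and 9.04 and 8.40, in roots, and at 6.61 and 7.02, and 8.31 and 8.27, in shoots. The root change was called for both (adjusted p = 0.00856 and 0.00514) and the shoot change for neither (0.0822 and 0.0602). Their differences were 0.75 ± 0.39 (adjusted p = 0.345) and 1.02 ± 0.33 (adjusted p = 0.178) and were not called. AT3G25790 and AT1G49560 were near the lower end of the scale in all groups, with root changes of -0.08 and 0.03 and shoot changes of 0.08 and -0.15. AT3G60320 had a difference of 0.34 ± 0.45.

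Glutaredoxins are small redox proteins that use glutathione. Their list had differences from -2.32 to 1.42 with a median of -0.42 over 19 genes (0.03 over all probe sets). AT4G15690 was the 1 called member, and 7 of the 19 had an unadjusted p under 0.05 in limma, against 18.9% of all probe sets. Its neighbours by code, AT4G15660, AT4G15680 and AT4G15700, had shoot changes of 1.5 ± 0.42, 2.28 ± 0.41 and 1.58 ± 0.30 and root changes of 0.23 ± 0.42, 0.81 ± 0.41 and -0.04 ± 0.30. The 3 shoot changes were not called (adjusted p = 0.321, 0.0876 and 0.104). In each of the 3, every array difference in shoot was above every one in root, as for 18.5% of all probe sets. None of the 3 differences was called (-1.28 ± 0.59, -1.47 ± 0.58 and -1.62 ± 0.42, adjusted p = 0.30, 0.237 and 0.120), and their nitrogen-treated shoot arrays were far apart, at 4.72 and 6.18 for AT4G15660. Whether the probe sets of these genes share signal was not tested.

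AT3G62930 had the reverse balance among the glutaredoxins. Its root arrays went from 4.47 on each control array to 7.35 and 6.98. Its shoot arrays went from 4.63 and 4.54 to 6.10 and 5.62. Nitrogen arrays lay above control arrays in each tissue, and the share of all probe sets with this order was not counted. The root change of 2.69 ± 0.20 was called, while the shoot change of 1.27 ± 0.20 (adjusted p = 0.0523) and the difference of 1.42 ± 0.28 (adjusted p = 0.0748) were not. ROXY2, known for its role in anther development, had a root change of 1.12 ± 0.11 and a shoot change of 0.59 ± 0.11 (difference 0.53 ± 0.16, adjusted p = 0.158). AT4G33040 had changes of -1.91 in root, which was called, and -1.09 in shoot. AT5G18600, high in shoots, had a shoot change of 1.04 ± 0.16 against 0.32 ± 0.16 in root (adjusted p of the difference 0.169). Of the 19, the root change was called higher in 2 and lower in 1, and the shoot change higher in 1. Over all probe sets, 6.94% rose and 4.44% fell in root, and 0.374% rose in shoot.

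**Figure D4:**
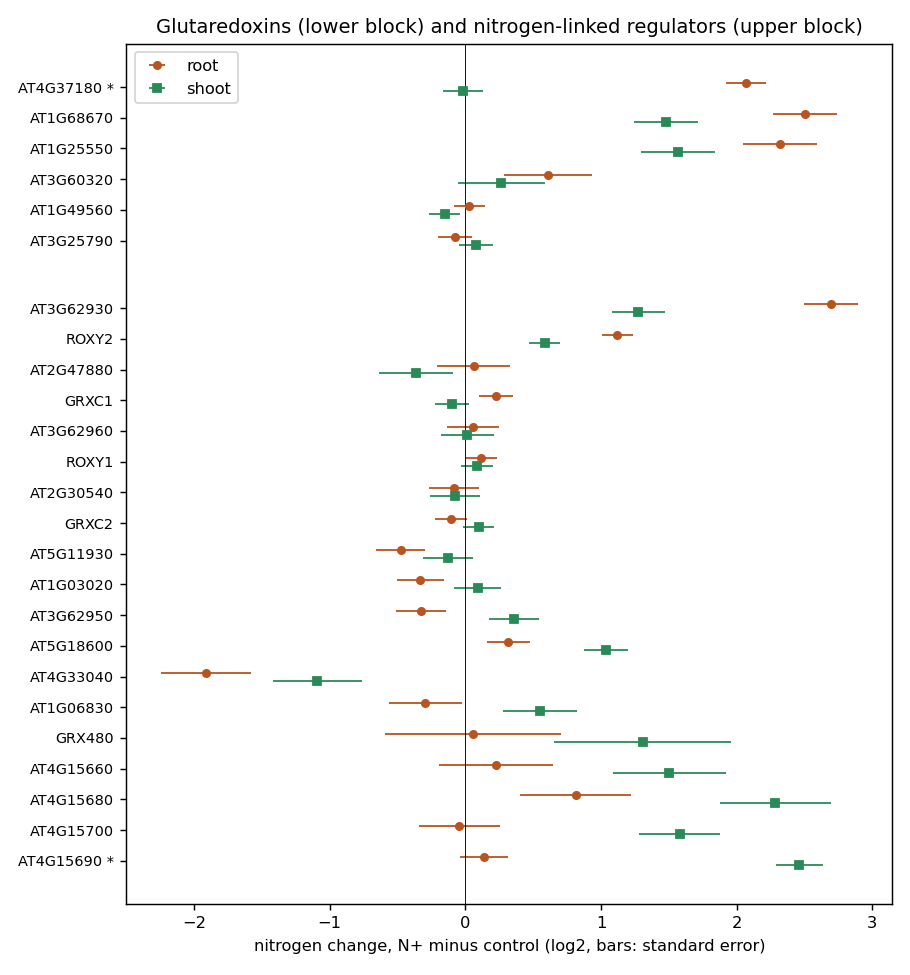
Nitrogen change (log2, horizontal axis) in root (circles) and shoot (squares) of 19 glutaredoxins (lower block) and 6 nitrogen-linked regulators (upper block), with bars of 1 standard error and an asterisk at the 2 genes with a called difference. AT4G37180 is apart from AT1G25550 and AT1G68670 by a shoot change near 0, and the 4 AT4G15660 to AT4G15700 glutaredoxins by shoot changes of 1.5 to 2.46 against root changes of -0.04 to 0.81.

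The remaining pathway lists had small numbers of measured genes and no called difference apart from GAT1_2.1, the 1 measured member of the ammonium list. Most loci on these lists were not matched to a probe set through the annotation and were not assessed. The nitrate list had 2 measured genes, AT2G26690 and NRT2.5, and the phosphate starvation and ribosomal protein lists had 0. The lists therefore do not speak for whole pathways. AT5G41670 and AT1G64190, of the list for the pentose phosphate pathway, which supplies NADPH, rose in both tissues, AT5G41670 by 2.42 ± 0.34 in root and 3.39 ± 0.34 in shoot and AT1G64190 by 1.46 in root and 1.67 in shoot. Their differences were -0.97 ± 0.48 (adjusted p = 0.330) and -0.21 ± 0.29 (adjusted p = 0.716). The nitrate transporter gene NRT2.5 had a difference of 0.54 ± 0.37 and the isocitrate dehydrogenase gene IDH-VI one of -1.07 ± 0.49. Sulfite reductase SIR had a root change of 1.15 and a shoot change of 0.91.

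Of the sugar genes, the vacuolar sugar transporter gene TMT1 was at 7.89 and 6.55 in root controls and 8.95 and 9.18 in nitrogen-treated roots, and between 6.38 and 6.67 on all shoot arrays. Its root control arrays were far apart, and the difference of 1.63 ± 0.54 was not called (adjusted p = 0.183). AT1G47400 of the iron list had a root change of 1.70 ± 0.22 and a shoot change of 0.26 ± 0.22 (difference 1.45 ± 0.32, adjusted p = 0.0902). The stress-responsive zinc finger gene STZ of the touch and wound list was at 7.48 and 9.21 on the shoot nitrogen arrays and 6.30 to 7.12 on the other 6, and its difference of -1.57 ± 0.75 was not called (adjusted p = 0.316). No difference was called among the cytokinin, cold and dehydration, clock and heat shock genes (8 genes, all with differences between -0.79 and 0.35 and none with an unadjusted p under 0.05 in limma).

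Marker genes of the tissues were not called either, although in roots 4 of the 9 root markers (1 higher, 3 lower) and 2 of the 11 photosynthesis markers (1 higher, 1 lower) had a called change, where 6.94% of all probe sets rose and 4.44% fell. The median difference was -0.80 over the 9 root markers and 0.29 over the 11 photosynthesis markers, against 0.03 over all probe sets. An unadjusted p under 0.05 in limma was found for 4 of the 9 and 2 of the 11, against 18.9% of all probe sets. Mean root marker level was 8.27 and 8.08 in root controls and 7.85 and 7.47 in nitrogen-treated roots, against 5.88 to 6.22 in shoots. PSB27 of photosystem II was at 5.38 and 4.56 in root controls and 6.61 and 6.59 in nitrogen-treated roots, with a difference of 1.89 ± 0.37 (adjusted p = 0.0760). The part of these shifts in the calls was not tested, and fewer cells of a type cannot be told apart from less RNA per cell in such samples.

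The list of calls depended on the arrays and on the scaling. Without root control replicate 1 there were 3178 calls and without replicate 2 there were 1469, each time including all 110. Without either root nitrogen array or either shoot control array no probe set was called (limma, 2547 to 3242 at an unadjusted p under 0.05). There were 92 calls without shoot nitrogen replicate 1, 31 of them among the 110, and 5 without replicate 2, 4 of them among the 110. Each of the 110 kept its sign in all 8 such fits, at 0.84 to 1.16 times its full value. The 110 were called from these same arrays for differences large beside the spread, so this is no separate support for them. After quantile normalization 24 were called and after median centring 42, all of them among the 110, and 19 were called under both. These 19 included scpl31, SUFE2, AT5G48590, AT2G41730, AT1G66180 and AT4G28290. The other 11 of the 15 genes in the plot of values by array lost the call under at least 1 of these scalings. With probe sets of a mean of 6 or more alone, 58 were called, of which 42 were among the 110.

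**Figure D5:**
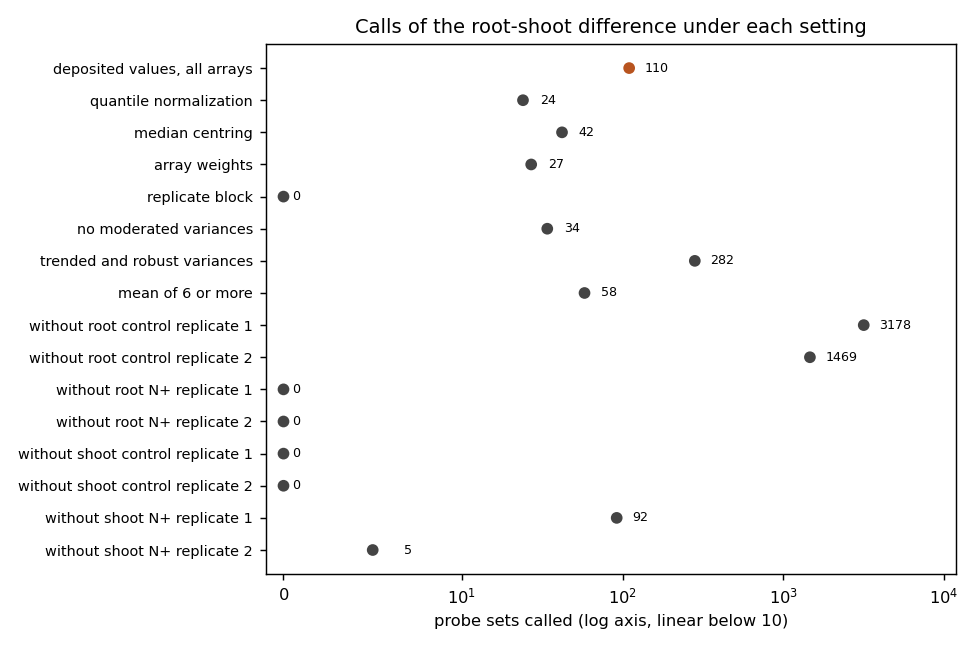
Number of probe sets with a called root minus shoot difference (horizontal axis, logarithmic and linear below 10) for the deposited values of all 8 arrays (110) and under each alternative or without 1 array. The count is highest without root control replicate 1 (3178) or 2 (1469) and 0 without an array of the root nitrogen or shoot control group.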

How the data were processed

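Arabidopsis RNA was measured on 1-colour Affymetrix arrays. The deposited log2 values per probe set were made by the authors with RMA, per the submitters' processing notes. No source used here gives the RMA version or says which arrays were run together. Of 22810 probe sets, 64 controls were left out. The log2 values were fitted without further scaling in limma 3.58.1 (R 4.3.3), with 4 group means, 4 residual degrees of freedom and moderated variances. No detection call was used here, and 2 arrays per group limit the precision. P-values are two-sided and measure the spread between these arrays, which may be partly technical, since nothing says that they came from separate cultures.

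Genes come from the platform annotation, in which 13513 probe sets had 1 gene, 1580 of them with a symbol. Named genes are, per class and direction, the 4 largest differences with a symbol and the largest with a locus code, and called list members. Further parts of the rule, on genes changed in the same direction and genes called under every alternative array set, named none. Members, classes and lists were chosen with earlier results of these data known. List genes with a symbol were matched after the annotation was seen. The symbol PGM was left out of the starch list because its gene number is not that of the listed locus. The fit was tested on simulated data in which all arrays of a probe set had the same spread and independent noise. That test does not cover the wider spread of the root control arrays, or deviations shared between arrays of different groups. No sequence is shown. Alternatives were quantile normalization, median centring, array weights, a replicate block, unmoderated variances, trended and robust variances, a brightness filter, other size limits and leaving out each array.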

Additional observations from a re-analysis of the deposited data

Results flagged for a closer look

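A difference between the tissues' nitrogen changes, tested as such, put these results here. The number of probe sets concerned was 110. Where the root change was the higher one, the root minus shoot difference was 3.57 for scpl31, 3.07 for GAT1_2.1, 2.99 for AT1G80380, 2.30 for AT1G66180, 2.19 for AT3G26510, 2.09 for AT4G37180, 1.89 for SAMTL and 1.32 for HON4. Where it was the lower one, the difference was -3.70 for AT2G41730, -2.42 for GT72B1, -2.32 for AT4G15690, -1.99 for SUFE2, -1.90 for AT4G08410, -1.30 for EC1.2 and -1.28 for CYP71B16. For AT3G26510, AT2G41730 and AT4G15690 the shoot changed, and for AT1G66180 and GT72B1 the tissues moved in opposite directions. Groups of 2 arrays are too small for a check on single outlying samples.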

How the results depend on the processing

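The number of calls differed widely between the alternatives, and the cause was not tested. Calls in all, higher in root, lower in root, root-confined, shoot-confined and opposite numbered 24, 15, 9, 10, 3 and 8 after quantile normalization and 27, 20, 7, 15, 4 and 6 with array weights (0.304 for each root control array, 1.14 to 1.91 for the others). Median centring gave 42 calls, 23 higher and 19 lower, with 23 root-confined and 9 opposite. Without moderated variances there were 34 calls, 8 of them higher in root, with 33 root-confined, 0 shoot-confined and 0 opposite. Trended and robust variances gave 282 calls, 177 of them lower in root, with 220 root-confined and 16 shoot-confined, so that 37.2% were higher in place of 70.9%. The filter at a mean of 6 left 58 calls, 49 higher and 9 lower, with 27 root-confined and 5 shoot-confined. A size limit of 1 in place of 0.5 left 4 opposite probe sets. In the fits without 1 array the counts ran from 0 to 3178 for all calls, 0 to 1701 for higher, 0 to 1477 for lower, 0 to 2783 for root-confined, 0 to 52 for shoot-confined and 0 to 126 for opposite. Each such fit assumes that the lone array of a group varies like the other groups.

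With the replicate number as a block there were 0 calls of any kind (limma, 3835 at an unadjusted p under 0.05). Deviations from the group means of same-numbered arrays correlated at -0.42 to 0.39 over probe sets. Root nitrogen gave 0.39 with shoot nitrogen and -0.42 with shoot control, and shoot control gave -0.38 with shoot nitrogen. Root control gave -0.12, 0.0049 and -0.032 with root nitrogen, shoot control and shoot nitrogen. Deviations in a group mirror each other, so each sign depends on the numbering. With the shoot control numbers exchanged, the values not involving root control would share a sign. A block with other numbers was not tested. No named gene changed sign under any alternative it was tested in, but the genes were named for differences called from these same arrays.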
